A study of Mus musculus with 36 samples.

Results

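The Pim genes encode a small family of serine/threonine kinases, PIM1, PIM2 and PIM3, and the 3 genes were followed through 18 libraries of the mouse embryonic forebrain. They were chosen by name, 3 of the 46603 genes in the count tables, and all 3 passed the filter on low counts at both stages. At E12.5, neocortices of C57Bl/6J embryos of 4 genotypes were sequenced, with 3 libraries a genotype and 1 embryo a library. They were Chd8 +/+, the wild type; Chd8 +/-, which carries 1 allele without exon 3, removed in the germline with a β-actin Cre; Chd8 neo/neo, in which both alleles hold a neomycin cassette in the intron after exon 3 that lowers correct splicing; and Chd8 neo/-, with 1 allele of each kind. At E10.5, telencephalic vesicles were sequenced from a conditional knockout (cKO), in which Sox1-Cre deletes the floxed exon in neural tube progenitors, and from controls (Ctrl) that were a mixture of Chd8 f/f and Chd8 f/+ embryos. Each E10.5 group had 3 libraries of 2 pooled embryos. Floxed alleles were therefore present in both E10.5 groups, and the null allele of Chd8 +/- and Chd8 neo/- was present in every cell of the embryo, not in neural cells alone.

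PIM kinases have no regulatory domain that needs to be switched on. Once made, the kinase is active, so that its amount is set largely by how much mRNA is transcribed and how long mRNA and protein last. Cytokines that signal through JAK kinases and STAT transcription factors are the classical inducers of *Pim1* and *Pim2*. The kinases act on cell cycle inhibitors such as p27 (*Cdkn1b*) and p21 (*Cdkn1a*), on the death promoter BAD, on FOXO factors and on regulators of translation, and their substrates overlap with those of AKT. *Pim1* was first known from retroviral insertions in mouse lymphomas, where it works together with MYC. In this study *Pim1* was picked from these RNA libraries as a gene linked to progenitor proliferation, so its direction in Chd8 neo/neo is not independent evidence.

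The 3 genes lie on different chromosomes of GRCm38, each on the plus strand with 6 merged exons in the count tables. *Pim1* (ENSMUSG00000024014) spans chr17:29490812-29496111, *Pim2* (ENSMUSG00000031155) chrX:7878262-7883432 and *Pim3* (ENSMUSG00000035828) chr15:88862186-88865718. The stretch where *Pim1* and *Pim3* are most alike is shown because reads from one paralog could be counted for another there. It lies in exon 4 of each gene, wholly in coding sequence, and encodes the catalytic loop of the kinase. The 60-base windows below were taken from the reference transcripts (GENCODE vM21, GRCm38), and capitals mark the 39 positions at which the 3 genes are identical.
Pim1 (chr17:29491899-29491958, +): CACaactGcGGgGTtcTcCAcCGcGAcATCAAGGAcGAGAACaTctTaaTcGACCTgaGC
Pim2 (chrX:7881488-7881547, +): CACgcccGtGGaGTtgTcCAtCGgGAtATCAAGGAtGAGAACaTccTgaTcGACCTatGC
Pim3 (chr15:88863416-88863475, +): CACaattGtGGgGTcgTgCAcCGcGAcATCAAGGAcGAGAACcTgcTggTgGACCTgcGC

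The longest run of identical bases was 24 for *Pim1* and *Pim3* (caccgcgacatcaaggacgagaac, in the windows above), 17 for *Pim1* and *Pim2* (ctctatgacatggtctg) and 17 for *Pim2* and *Pim3* (tacactgactttgatgg). The reads were 75 bases long, so no read of full length could match 2 members without mismatches. Of all the 75-base stretches of the *Pim3* transcript, 0 of 2353 occurred in a transcript of another gene. For *Pim2* they were 11 of 1971, shared with the gene models Gm21182 and Gm7645. For *Pim1* they were 225 of 2624, all shared with Gm26885, a gene model on the opposite strand whose exons cover 468 exonic bases of *Pim1* (17.7%). The E12.5 reads were counted without regard to strand, so *Pim1* reads in those bases could not be told apart from Gm26885. Gm26885 itself held 3 to 61 counts a library against 930 to 3643 for *Pim1*, and it did not pass the test in Chd8 neo/neo, Chd8 neo/- or cKO (edgeR adjusted p of 0.561, 0.679 and 0.120).

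The study measured *Pim1* in sorted progenitors with its own PCR primers, whose position shows which part of the transcript that assay reads. They are printed here 5′ to 3′.
forward primer (exon 4, chr17:29491960-29491979): gcggcgaaatcaaactcatc
reverse primer (exon 5, chr17:29493742-29493761): tggtagcgaatccactctgg

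The pair brackets 112 bases of the *Pim1* transcript just downstream of the window above, and neither primer occurs in a *Pim2* or *Pim3* transcript. The PCR data were not analysed here.

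Library depth was 38774591 to 61051667 assigned counts at E12.5 and 49632937 to 68488879 at E10.5. Levels are given as counts per 1000000 assigned counts (CPM) after scaling by the trimmed mean of M-values within each stage, and n = 3 libraries a group throughout. *Chd8*, the check of the labels, stood at 235 to 239 CPM in the Chd8 +/+ libraries, and its range was 165 to 170 CPM for Chd8 +/-, 203 to 213 CPM for Chd8 neo/neo, then 142 to 158 CPM for Chd8 neo/-, with no overlap between any of the 4. In cKO it was 116 to 125 CPM against 160 to 184 CPM in Ctrl. Counts per gene include reads from the exons left in the mutant alleles, so these values do not measure intact mRNA alone. Chd8 neo/neo lay above Chd8 +/- here. The paper reports the opposite order, with less *Chd8* transcript by PCR at an earlier stage and less CHD8 protein in Chd8 neo/neo. The cause of this difference was not tested. Of the 8 neuron markers, only *Neurod6* had no count in either E10.5 group. The sum of the 8 was 194 to 359 CPM in Ctrl and 228 to 321 CPM in cKO. All 8 radial glia markers were present in each of the 6 groups.

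*Pim1* was higher in both E12.5 groups that carry the neo allele than in Chd8 +/+, by 21.3% for Chd8 neo/neo and 28.1% for Chd8 neo/-. *Pim2* and *Pim3* passed the test in none of the 9 comparisons made. In the E10.5 cKO *Pim1* was 22.6% above Ctrl, a difference that missed the threshold. Bulk RNA cannot tell more cells that express a gene from more RNA in each cell.

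In Chd8 +/+ neocortex the 3 libraries held *Pim1* at 24.7, 21.9 and 25.3 CPM (23.99 ± 1.79, SD). The Chd8 +/- libraries held it at 24.8, 27.96 and 26.5 CPM (26.4 ± 1.58) and the Chd8 neo/neo libraries at 30.4, 29.4 and 27.6 CPM (29.1 ± 1.41). In Chd8 neo/- it stood at 29.5, 32.4 and 30.3 CPM (30.7 ± 1.52). Every library with a neo allele thus lay above every Chd8 +/+ library, whereas Chd8 +/- overlapped with both Chd8 +/+ and Chd8 neo/neo. The group means were lowest in wild type, followed by Chd8 +/-, then Chd8 neo/neo and last Chd8 neo/-, and no 2 neighbours in that order were separated by the test.

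**Figure D1:**
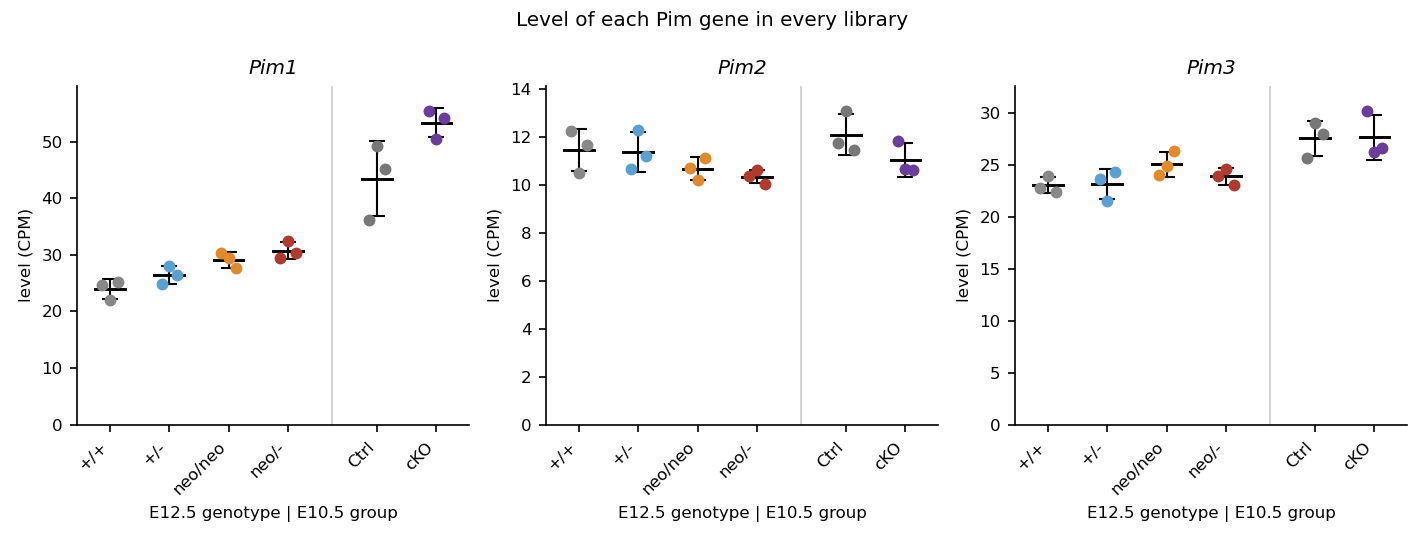
Level of each *Pim* gene in CPM in every library, by E12.5 genotype and E10.5 group. Points are libraries, horizontal lines are group means and bars are 1 SD (n = 3). *Pim1* has a mean of 23.99 CPM in Chd8 +/+ and of 30.7 CPM in Chd8 neo/-, while the group means of *Pim2* at E12.5 lie between 10.3 and 11.5 CPM and those of *Pim3* between 23.03 and 25.1 CPM. The stages were scaled separately.

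Against Chd8 +/+, the Chd8 neo/neo neocortex gave *Pim1* a log2 fold change of 0.28 (SE 0.066, 95% CI 0.14 to 0.42, adjusted p = 0.0222) by edgeR's quasi-likelihood test with Benjamini-Hochberg adjustment over 18810 genes. Of the 3 members 1 was called, where 8.16% of all genes tested were called and 3.71% were called as higher. Without regard to the test, 12.5% of all genes had every Chd8 neo/neo library above every wild-type one. The call was lost without Chd8 +/+ replicate 2 (log2 0.23, adjusted p = 0.0845), which held the lowest *Pim1* level of all E12.5 libraries, and without Chd8 neo/neo replicate 1 (0.24, 0.0907) or replicate 2 (0.27, 0.0800). The fit restricted to these 2 groups gave an adjusted p of 0.0675, the fit of both stages together 0.0621 and DESeq2 0.00411.

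In Chd8 neo/- the log2 fold change of *Pim1* was 0.36 (SE 0.066, 95% CI 0.22 to 0.50, adjusted p = 0.00405, edgeR), again with 1 of 3 members called, against 11.5% of all genes called and 5.48% called as higher. In 16.4% of all genes the Chd8 neo/- libraries lay above wild type without overlap. Leaving out any 1 of the 12 libraries kept the call, with adjusted p-values of 0.00326 to 0.0260. Chd8 neo/- and Chd8 neo/neo share the same Chd8 +/+ libraries, so these are not 2 independent observations. Set against Chd8 +/- instead, *Pim1* in Chd8 neo/- had a log2 fold change of 0.22 (SE 0.066, 95% CI 0.076 to 0.36, adjusted p = 0.0692, edgeR), and the 3 libraries of each group did not overlap. Of all genes, 16% had every Chd8 neo/- library above every Chd8 +/- library, and 5.43% passed the test in that comparison, which called 0 of 3 members.

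The remaining steps of the allelic series were smaller. *Pim1* in Chd8 +/- differed from Chd8 +/+ by a log2 fold change of 0.14 (95% CI -0.0035 to 0.28, edgeR adjusted p = 0.797), in a comparison that called 0 of 3 members and 0.0213% of all genes. Chd8 neo/neo against Chd8 +/- gave 0.14 (95% CI -0.0021 to 0.28, adjusted p = 0.222), with 0 of 3 members and 5.28% of all genes called. Chd8 neo/- against Chd8 neo/neo gave 0.078 (95% CI -0.063 to 0.22, adjusted p = 0.757), with 0 of 3 members and 0.0159% of all genes called. The interval for Chd8 +/- reaches 0.28, the value estimated for Chd8 neo/neo, and so the size of the step from wild type to Chd8 +/- was not resolved.

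*Pim2*, the X-linked member, was expressed at the lowest level. The Chd8 +/+ libraries read 12.2, 10.5 and 11.6 CPM and the Chd8 +/- libraries 10.6, 12.3 and 11.2 CPM. For Chd8 neo/neo the values were 10.7, 10.2 and 11.1 CPM, and for Chd8 neo/- they were 10.4, 10.6 and 10.03 CPM. The 3 mutant ranges overlapped with that of wild type, and the means ran from 11.5 ± 0.879 down to 10.3 ± 0.282 CPM. The log2 fold change against Chd8 +/+ was -0.10 in Chd8 neo/neo (95% CI -0.27 to 0.062, adjusted p = 0.440) and -0.15 in Chd8 neo/- (95% CI -0.32 to 0.017, adjusted p = 0.242, edgeR). With the marker covariates added after seeing the data, described further on, it reached -0.24 in Chd8 neo/neo (neuron, adjusted p = 0.335) and -0.27 in Chd8 neo/- (erythroid, adjusted p = 0.351). The 3 Chd8 neo/- libraries lay below the 3 Chd8 +/- libraries, a separation in that direction that 14.9% of all genes had, with a log2 fold change of -0.14 (adjusted p = 0.321).

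*Pim3*, which encodes the third kinase of the family, read 22.8, 23.9 and 22.4 CPM in the Chd8 +/+ libraries and 23.6, 21.5 and 24.3 CPM in those of Chd8 +/-. For Chd8 neo/neo the values were 24.0003, 24.9 and 26.4 CPM, and for Chd8 neo/- they were 23.9, 24.6 and 23.1 CPM. The Chd8 neo/neo libraries lay just above those of Chd8 +/+, as 12.5% of all genes did, with a log2 fold change of 0.12 (95% CI -0.0025 to 0.25, adjusted p = 0.207, edgeR). In Chd8 neo/- the value was 0.053 (95% CI -0.073 to 0.18, adjusted p = 0.627) and the groups overlapped. The *Pim3* interval overlapped with that of *Pim1* in Chd8 neo/neo (0.14 to 0.42) and lay below it in Chd8 neo/- (0.22 to 0.50). Such intervals do not test the difference between the genes, for which only the ratios below were used.

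**Figure D2:**
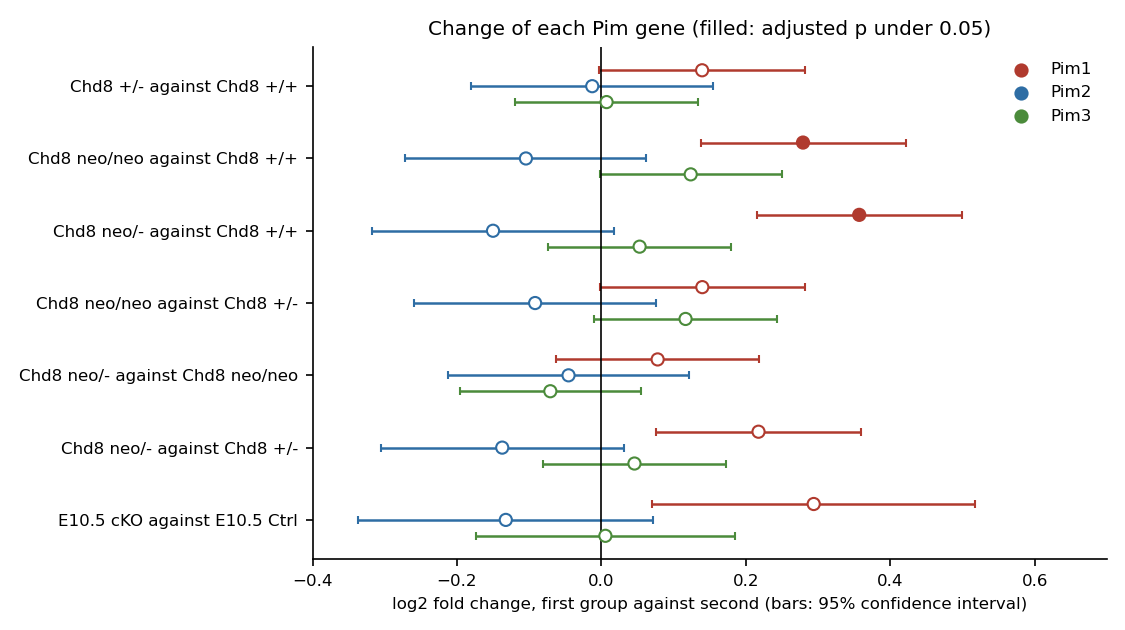
Log2 fold change of *Pim1*, *Pim2* and *Pim3* in the 7 comparisons within a stage (x axis), with 95% confidence intervals from edgeR. The filled points passed an adjusted p of 0.05, both of them *Pim1* against Chd8 +/+ (0.28 for Chd8 neo/neo, 0.36 for Chd8 neo/-). All intervals of *Pim2* and *Pim3* include 0.

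Whether the members moved apart was tested on ratios within a library, which no scaling between libraries can change. These ratios were chosen after the values above were seen. Levels were divided by exon length, so that the genes could be compared: Chd8 +/+ neocortex held 9.09 CPM per kb of *Pim1*, 4.10 of *Pim2* and 9.52 of *Pim3*, which put them at the 66.5th, 50.05th and 67.6th percentile of all tested genes.

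The ratio of *Pim1* to *Pim2* was 2.14 to 2.30 in wild type, 2.42 to 2.51 in Chd8 +/-, 2.63 to 3.06 for Chd8 neo/neo and 3.01 to 3.24 for Chd8 neo/-. Neither Chd8 +/+ nor Chd8 +/- overlapped with any other genotype, and only the 2 genotypes with a neo allele overlapped with each other. An exact permutation test over all 369600 ways to assign the 12 libraries to 4 groups of 3, on the log2 ratio, gave p = 0.00013 (0.00039 after Benjamini-Hochberg adjustment over 3 ratios). The ratio of *Pim1* to *Pim3* ran from 0.842 to 1.03 in wild type, 0.962 to 1.19 in Chd8 +/-, 0.960 to 1.16 for Chd8 neo/neo and 1.13 to 1.21 for Chd8 neo/- (exact p = 0.145, adjusted 0.145). For *Pim3* to *Pim2* the exact p was 0.0932 (adjusted 0.140). By this test the course of *Pim1* differed from that of *Pim2*, while a difference from *Pim3* did not pass it. The ratio was picked after the same levels were seen, so its p-value is a description and not independent evidence. How many other pairs of genes separate the genotypes in this way was not computed. Between 2 single groups of 3 libraries the same test cannot go below 0.10, the value it gave for *Pim1* to *Pim2* in each genotype against Chd8 +/+.

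Summed per kb, the family stood at 22.7 ± 0.659 CPM per kb in wild type, 23.6 ± 0.585 in Chd8 +/-, 25.2 ± 0.141 for Chd8 neo/neo and 25.2 ± 0.914 for Chd8 neo/-. The share of *Pim1* in that sum was 37.9 to 41.7% in wild type, 40.9 to 44.4% in Chd8 +/-, 41.3 to 45.6% for Chd8 neo/neo and 45.1 to 46.8% for Chd8 neo/-, so that only the last did not overlap with wild type. By their levels, 16.4% of all genes had every Chd8 neo/- library above every wild-type one. How often a share of this kind separates the groups was not computed, and the share is given as a description.

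**Figure D3:**
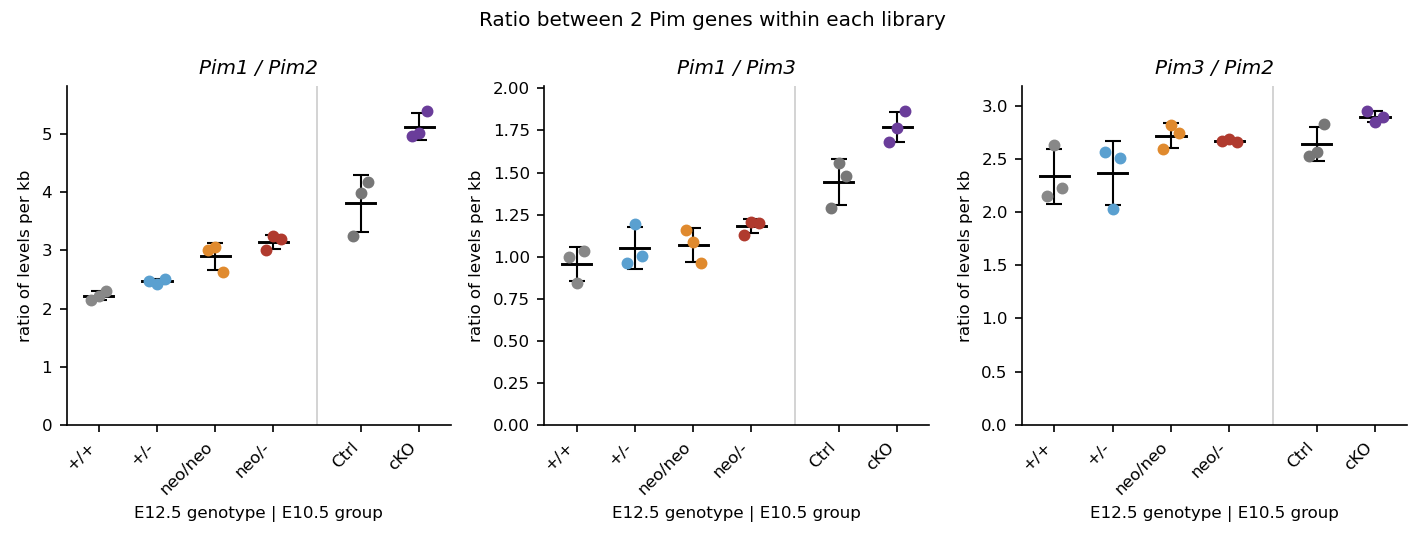
Ratio of levels per kb between 2 *Pim* genes within each library (y axis), by E12.5 genotype and E10.5 group. Points are libraries, lines means and bars 1 SD (n = 3). The ratio of *Pim1* to *Pim2* is 2.14 to 2.30 in Chd8 +/+ and 3.01 to 3.24 in Chd8 neo/-, while *Pim3* to *Pim2* is 2.15 to 2.63 and 2.66 to 2.69.

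The E10.5 telencephalon held more *Pim1* than *Pim3* per kb, and *Pim1* made up over 48.0% of the family in every library. Ctrl libraries held *Pim1* at 36.1, 49.1 and 45.2 CPM (43.5 ± 6.67) and cKO libraries at 55.4, 50.4 and 54.1 CPM (53.3 ± 2.58). The 2 groups did not overlap, as for 15.7% of all genes in this direction, but Ctrl replicate 1 lay well below the other two. The log2 fold change was 0.29 (SE 0.10, 95% CI 0.070 to 0.52, adjusted p = 0.0892, edgeR over 18435 genes), in a comparison that called 0 of 3 members and 11.4% of all genes. The side of the threshold depended on the fit: DESeq2 gave an adjusted p of 0.0318, no filter on low counts 0.0153, both stages in 1 fit 0.0199 and the removal of Ctrl replicate 2 0.0192 (log2 0.39). Without Ctrl replicate 1 the log2 fold change was 0.18 and the adjusted p 0.141.

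*Pim2* read 11.8, 13.1 and 11.4 CPM in Ctrl and 11.8, 10.6 and 10.6 CPM in cKO, with a log2 fold change of -0.13 (95% CI -0.34 to 0.072, adjusted p = 0.395, edgeR). *Pim3* read 25.7, 28.99 and 27.96 CPM in Ctrl and 30.2, 26.2 and 26.6 CPM in cKO, with a log2 fold change of 0.0055 (95% CI -0.17 to 0.18, adjusted p = 0.976). For both the groups overlapped. The ratio of *Pim1* to *Pim2* was 3.26 to 4.19 in Ctrl and 4.96 to 5.40 in cKO, and that of *Pim1* to *Pim3* 1.29 to 1.55 and 1.68 to 1.87; each gave an exact permutation p of 0.10, the smallest that 3 against 3 libraries allow.

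The effect of cKO on *Pim1* was tested against the effects at E12.5 in a fit of all 18 libraries. The cKO effect exceeded that of Chd8 neo/neo by a log2 value of 0.013 (95% CI -0.24 to 0.27, edgeR adjusted p = 0.967) and its difference from that of Chd8 neo/- was -0.064 (95% CI -0.32 to 0.19, adjusted p = 0.815). Neither comparison of effects called any of the 3 members, against 6.80% and 6.79% of all genes. Stage, tissue dissected, pooling and allele differ together between these groups and cannot be told apart.

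Markers of other cells moved with genotype beside *Pim1*. The summed level of 8 erythroid markers was 3217 to 3919 CPM in wild type, 3223 to 4545 in Chd8 +/-, 3472 to 4114 for Chd8 neo/neo and 4519 to 7004 for Chd8 neo/-. Among these 8, 3 were called as higher in Chd8 neo/-, where 5.48% of all genes were. They include the embryonic globin genes *Hbb-bh1* and *Hba-x*, calls that 12 of 22 alternative analyses lost for each. Of the 5 not called, *Hba-a2* lay below 0 (log2 -0.84) and the rest above. In Chd8 neo/neo 0 of 8 passed edgeR's test, while DESeq2 called 2 and 2 had an unadjusted p under 0.05. *Pim1* is also known from blood-forming cells. With the erythroid sum as a covariate, an alternative added after seeing the data, the log2 fold change of *Pim1* was 0.26 for Chd8 neo/neo (adjusted p = 0.0130) and 0.16 in Chd8 neo/- (adjusted p = 0.454).

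The summed level of 8 neuron markers was 3740 to 4480 CPM in wild type, 3804 to 4524 in Chd8 +/-, 2998 to 3572 for Chd8 neo/neo and 3359 to 3768 for Chd8 neo/-. *Dcx* and *Map2*, which encode microtubule proteins of young neurons, were lower in both genotypes with a neo allele. They were 2 of 8 in each, where 8.16% (Chd8 neo/neo) and 11.5% (Chd8 neo/-) of all genes were called. The 6 not called lay below 0 in both, *Tubb3* at a log2 value of -0.18 and -0.052 and *Tbr1* at -0.14 and -0.038. Of 22 alternative analyses, the *Dcx* call was lost in 1 for Chd8 neo/neo and 4 for Chd8 neo/-, and that of *Map2* in 2 and 9. In Chd8 neo/neo 2 of 8 radial glia markers went the other way (*Pax6* and *Sox2* higher, lost in 5 and 4 of the 22). Of all genes, 3.71% were called as higher there. Among the 6 not called, *Fabp7* (log2 -0.14) and *Slc1a3* (-0.23) lay below 0 and the rest above. The summed level of the 8 overlapped with Chd8 +/+ (2674 to 3075 against 2671 to 2882 CPM). In Chd8 neo/- 0 of 8 were called, and the sums overlapped with Chd8 +/+ too (2874 to 2912 CPM). With the neuron sum as a covariate, also added after seeing the data, *Pim1* stood 0.074 above wild type (log2) for Chd8 neo/neo (adjusted p = 0.711) and 0.24 in Chd8 neo/- (adjusted p = 0.0186). The erythroid sum of Chd8 neo/- and the neuron sum of Chd8 neo/neo did not overlap with wild type, so in those 2 fits genotype and cell content cannot be told apart. Pearson's r of *Pim1* with the sums was taken over the 12 E12.5 libraries, which share the genotype differences. It was 0.74 for erythroid, -0.80 for neuron and 0.62 for radial glia markers, the largest in size of all marker lists. For the other lists r lay between -0.36 (macrophage) and 0.27 (endothelial), with 0.033 for intermediate progenitor markers. Over the 6 E10.5 libraries r was -0.47 for erythroid, -0.56 for neuron and -0.18 for radial glia markers. No p is given for these values.

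Of the other marker lists, 1 of 8 endothelial genes was lower in Chd8 neo/neo (*Kdr*, lost in 6 of 22 alternative analyses). There, 1 of 8 intermediate progenitor genes was higher (*Gadd45g*, lost in 21), and 8.16% of all genes were called. No macrophage, mesenchyme or surface ectoderm marker passed edgeR's test at E12.5, although DESeq2 called 2 of 8 macrophage markers in Chd8 neo/neo. In cKO, 3 of 8 mesenchyme and pericyte markers were higher, where 11.4% of all genes were called. They were *Col1a2*, *Col3a1* and *Pdgfrb*, lost in 2, 5 and 3 of 15 alternative analyses. Among the 5 not called, *Acta2* lay below 0 (log2 -0.48) and the rest above. The sum of the 8 was 821 to 1016 CPM against 657 to 747 CPM in Ctrl. With that sum as a covariate, also added after seeing the data, *Pim1* had a log2 fold change of 0.25 in cKO (edgeR adjusted p = 0.752). The sums of cKO and Ctrl did not overlap, so genotype and cell content cannot be told apart in this fit. It called 5 genes in all, against 2110 without the covariate. *Cdh5* was the 1 call of 8 endothelial and *Cx3cr1* the 1 call of 8 macrophage markers in cKO. Both were higher, and the calls were lost in 6 and 2 of the 15. The erythroid sums overlapped (3226 to 5097 CPM in cKO, 3416 to 5562 CPM in Ctrl). The part of these cells in the *Pim* results was not tested beyond these fits.

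Expression from the sex chromosomes differed between groups. *Xist* outweighed 4 Y-linked genes in 1 wild-type library, 1 of Chd8 +/-, 2 of Chd8 neo/neo and 0 of Chd8 neo/-. The cKO pools held *Xist* at 708 to 1069 CPM together with 69.8 to 135 CPM of Y-linked RNA, whereas each Ctrl pool held 1 kind only. With this as a covariate both E12.5 calls of *Pim1* were kept, and in cKO the log2 fold change was 0.36 (adjusted p = 0.0242).

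The genes that act before and after the PIM kinases were described from 11 lists of 100 distinct genes. In Chd8 +/- 0 of 93 tested were called by edgeR and 0 by DESeq2, with 4 at an unadjusted p under 0.05. In Chd8 neo/neo 5 of 93 were higher and 3 lower (8.60%), and in Chd8 neo/- 3 were higher and 2 lower (5.38%), against shares for all genes of 8.16% and 11.5%; DESeq2 called 15 and 9. In cKO 13 of 96 were higher and 3 lower (16.7%, against 11.4% of all genes), and DESeq2 called 21. The median log2 fold change was 0.059, against -0.0019 over all genes. Only 6 of these 16 cKO calls held in every alternative analysis other than the marker covariates.

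Upstream, among cytokines and receptors of the JAK-STAT route, 0 of 14 passed edgeR's test in either genotype with a neo allele, while DESeq2 called 1 in each, and the genes with an unadjusted p under 0.05 were 4 for Chd8 neo/neo and 2 for Chd8 neo/-. In cKO 2 of 15 did, both higher. *Lif*, the cytokine leukaemia inhibitory factor, went from a mean of 0.238 to 1.61 CPM (log2 fold change 2.74, SE 0.23, adjusted p = 7.08e-05), and *Il6st*, the receptor chain gp130 that LIF signals through, from 83.9 to 103 CPM (0.29, adjusted p = 0.0189).

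Of 11 JAK and STAT genes, *Tyk2*, a JAK kinase, was higher in Chd8 neo/neo (0.30, adjusted p = 0.0105), Chd8 neo/- (0.37, adjusted p = 0.00154) and cKO (0.34, adjusted p = 0.0143). *Stat3*, the factor best known for inducing *Pim1*, was lower in Chd8 neo/neo, from 38.3 to 33.5 CPM (log2 -0.20, adjusted p = 0.0315), a call lost in 7 of 22 alternative analyses, and it was not called in Chd8 neo/- or cKO. *Stat4* was lower in cKO (-0.75, adjusted p = 0.0288). The STAT feedback and target genes, which include *Socs3*, *Cish* and *Bcl6*, gave 0 of 11 calls in either genotype with a neo allele and 0 of 12 in cKO (edgeR, lowest adjusted p 0.0884, 0.137 and 0.0613), with median log2 fold changes of -0.0026, 0.055 and 0.072. At an unadjusted p under 0.05 they were 3, 2 and 1, and DESeq2 called 1, 0 and 1.

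Among the substrates of PIM kinases, *Cdkn1b*, the cyclin-dependent kinase inhibitor p27, was lower in all 3. Its mean went from 159 CPM in wild type to 129 CPM for Chd8 neo/neo (log2 -0.30, adjusted p = 0.00191) and 121 CPM in Chd8 neo/- (-0.39, adjusted p = 9.23e-05), and from 69.3 CPM in Ctrl to 45.5 CPM in cKO (-0.61, adjusted p = 0.000392, edgeR). *Cdkn1b* is among the genes with qRT-PCR primers in the study as well. *Cdkn1a*, the p53 target that encodes p21, was not called at E12.5 and went from 6.02 to 90.3 CPM in cKO (log2 3.90, SE 0.33, adjusted p = 0.00511). At E12.5 *Cdkn1b* was the 1 call among 8 cell cycle substrates in both genotypes, while in cKO 2 were higher and 1 lower, the other higher one being *Numa1*, a spindle protein (0.24, adjusted p = 0.0349).

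Survival substrates gave 0 of 6 calls by edgeR in both neo genotypes (1 in each by DESeq2, and 1 and 2 at an unadjusted p under 0.05). In cKO 3 of 6 were called, all higher, against 11.4% of all genes called. They were *Foxo3* (1.25, adjusted p = 0.000199), *Mdm2*, which encodes the p53 ubiquitin ligase (0.47, adjusted p = 0.000594), and *Foxo1* (0.34, adjusted p = 0.0419, edgeR). The *Foxo1* call was lost in 6 of 15 alternative analyses. *Foxo3* and *Foxo1* encode transcription factors that promote arrest and death, so the list does not hold survival genes alone. Of 4 translation substrates *Tsc2*, a brake on mTOR, was higher in cKO (0.34, adjusted p = 0.0135), and 0 passed edgeR or DESeq2 in the neo genotypes, with 1 in each at an unadjusted p under 0.05. Of the transcription substrates and partners, *Mycn* was higher in Chd8 neo/neo, from 99.3 to 118 CPM (0.25, adjusted p = 0.0372, lost in 8 of the 22). In cKO *Snd1*, a coactivator that binds PIM1, was higher (0.23, adjusted p = 0.0199), and *Cxcr4*, a chemokine receptor, lower (-0.33, adjusted p = 0.0460).

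Of the 6 chaperones and phosphatase subunits that set PIM protein stability, 0 passed edgeR's test in the neo genotypes (unadjusted p under 0.05 for 0 and 2, DESeq2 0 and 1) and *Ppp2r1a*, a scaffold of the phosphatase PP2A, was higher in cKO (0.26, adjusted p = 0.0131). Among 8 kinases of the AKT and mTOR route, *Sgk3* was higher for Chd8 neo/neo (0.37, adjusted p = 0.0179) and Chd8 neo/- (0.61, adjusted p = 0.000559), and *Pdpk1*, the kinase that activates AKT and SGK, was lower in both (-0.12 and -0.15, adjusted p = 0.0423 and 0.0129), the former lost in 16 of the 22. *Akt1* was higher in cKO (0.22, adjusted p = 0.0278, edgeR).

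Immediate early genes, which respond fast to growth factors and to tissue handling, gave 1 of 15 calls in both neo genotypes and 0 of 15 in cKO (edgeR, lowest adjusted p 0.0859, with 1 at an unadjusted p under 0.05 and 0 by DESeq2). The call was *Ier2*, from 20.1 CPM to 24.8 CPM for Chd8 neo/neo (0.31, adjusted p = 0.0108) and 24.4 CPM for Chd8 neo/- (0.28, adjusted p = 0.00979). *Ier2* is also one of 6 genes listed next to *Pim1* among the study's qRT-PCR primers; *Pim1* and *Axin2* were picked from these libraries, and how the other genes were chosen is not stated, so the list is not taken as independent evidence of direction. Of these 6, *Pax6* and *Ier2* were higher and *Cdkn1b* lower in Chd8 neo/neo, where 8.16% of all genes were called. In Chd8 neo/-, with 11.5% of all genes called, *Ier2* was higher and *Cdkn1b* lower. There *Pax6* was not called (0.12, adjusted p = 0.0974, edgeR). In cKO, with 11.4% of all genes called, *Otx1* was higher and *Cdkn1b* lower. *Axin2*, a Wnt feedback gene that the study followed beside *Pim1*, stood at 76.1 CPM in wild type and 82.4 CPM for Chd8 neo/neo (log2 0.11, SE 0.10, adjusted p = 0.530, edgeR). The paper names both genes as upregulated in its Chd8 neo/neo RNA-seq, and *Axin2* was not called here. It also reports both as higher by qRT-PCR in sorted TBR2+ but not PAX6+ progenitors. That is another measure at a later stage, in sorted cells and not in whole neocortex.

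**Figure D4:**
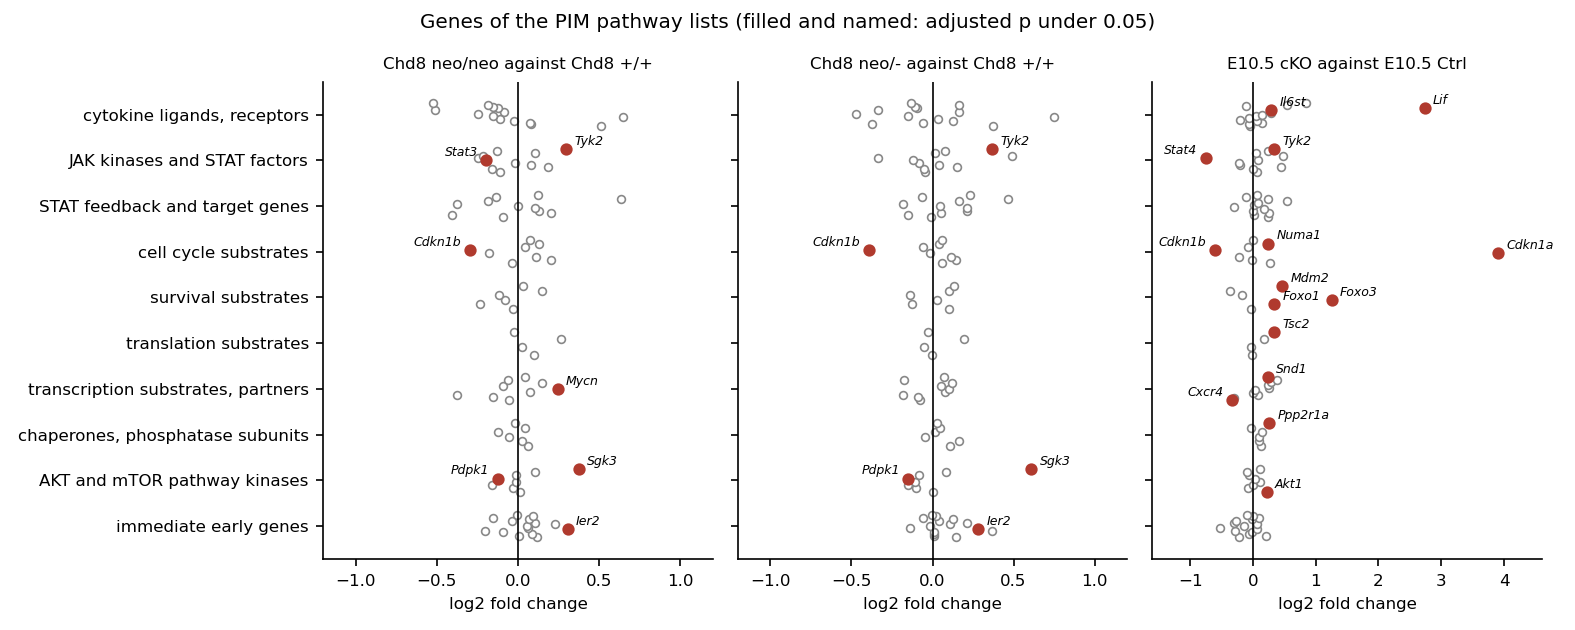
Log2 fold change (x axis) of every tested gene of 10 lists around the PIM kinases, in 3 comparisons; the primer genes are left out and the x axis of cKO is wider. Filled, named points passed an adjusted p of 0.05 (edgeR). *Cdkn1b* and *Tyk2* are filled in all 3 panels, and *Cdkn1a* (3.90) and *Lif* (2.74) lie farthest to the right in the cKO panel.

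Among the genes whose level over the 12 E12.5 libraries was most like that of *Pim1* were *Ift140* (Pearson's r = 0.97), *Nqo1* (0.96), *Cyp20a1* (0.95) and *Aqp3* (0.95). *Nqo1* encodes a quinone reductase and went from a mean of 2.40 CPM in wild type through 3.02 and 3.59 to 4.15 CPM in Chd8 neo/-, and *Ift140* a part of the transport system of cilia. For *Pim2* they were *Fnbp1* (0.94), *Igdcc4* (0.93), *Afdn* (0.91), *Dip2a* (0.90) and *Tbc1d2b* (0.88). For *Pim3* they were *Rpl13* (0.89), *Ube2s* (0.89), *Pgls* (0.88), *Sac3d1* (0.88) and *2310009B15Rik* (0.88). None of the 3 members followed another as closely: r was 0.22 for *Pim1* and *Pim3*, -0.34 for *Pim1* and *Pim2* and -0.52 for *Pim2* and *Pim3*. These correlations are the highest among all genes tested, over libraries that share genotype, and are given as a description.

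Within 100 kb of *Pim1*, 3 other genes were tested and 0 were called in Chd8 neo/neo, Chd8 neo/- or cKO. Around *Pim2*, *Otud5*, which encodes a deubiquitinase and lies 1636 bases away, was lower in Chd8 neo/- (-0.19, adjusted p = 0.00737) and in cKO (-0.21, adjusted p = 0.0378), 1 of 9 and 1 of 10 tested neighbours, about the shares called among all genes (11.5% and 11.4%). Around *Pim3*, *Alg12*, an enzyme of glycosylation, was higher in Chd8 neo/neo (0.28, adjusted p = 0.0363) and Chd8 neo/- (0.31, adjusted p = 0.0171), 1 of 5 in each, against 8.16% and 11.5% of all genes. Both were named after their values were seen, and from such numbers nothing is read about the surroundings of the *Pim* genes.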

How the data were processed

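Per the file headers and the labels, the authors deposited raw counts per gene and sequencing run, made from trimmed paired reads (Trim Galore 0.4.1) aligned to GRCm38.p4 with TopHat2 2.1.0 and counted with featureCounts 1.5.0; the header of the E12.5 table shows no strand option although the libraries were stranded. Without normalization or pooling, the 36 columns were summed to 18 libraries of 2 runs each. Symbols matched 46005 of 46603 genes. The *Pim* genes, the gene lists and the tests were chosen with earlier results of these data known. Lists were described by counts, naming at most 3 called genes a list and comparison, and up to 5 genes most like each member; some genes that met these rules are not reported here.

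Genes passing edgeR's filterByExpr were fitted with edgeR 4.0.16 (TMM, robust quasi-likelihood), with the 12 E12.5 libraries in 1 fit, the 6 E10.5 libraries in another and all 18 for differences between effects, and p-values were adjusted over all genes tested (threshold 0.05). Alternatives were DESeq2 1.42.0, RLE and upper quartile scaling, no filter, each run alone, sex-linked expression, a replicate block, only the groups compared, both stages together and each library left out; 3 marker covariates were added after seeing the data. Scripts were tested on simulated data. Methods name different litters for replicates. Deviations of same-numbered libraries from their group means had r of 0.108, 0.195 and 0.199 for Chd8 +/- and Chd8 neo/neo. For other pairs of groups r was -0.268 to 0.114. These ranges overlap and were not tested, so whether the numbers pair any groups was not settled. The runs of a library differed in *Pim* CPM by at most 16.8%, or 2.88 counting errors. *Pim* genes held 408 (*Pim2*) to 3643 (*Pim1*) counts a library, so that counting error was largest for *Pim2*.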

Additional observations from a re-analysis of the deposited data

How the results depend on the processing

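*Pim1* in Chd8 neo/- against Chd8 +/+ kept its direction and call in all 22 alternatives other than the marker covariates, and *Pim1* in Chd8 neo/neo kept its direction in the same 22 but lost the call in 5. Leaving out 1 library gave log2 fold changes of 0.23 to 0.33 for *Pim1* in Chd8 neo/neo, with adjusted p-values of 0.0128 to 0.0907; only the 2 groups compared gave 0.28 (adjusted p = 0.0675) and both stages in 1 fit 0.28 (0.0621). *Pim1* in Chd8 neo/- against Chd8 +/- became a call with DESeq2 (0.21, 0.0477) and with only those 2 groups (0.22, 0.0452). *Pim1* in cKO became a call with DESeq2 (0.30, 0.0318), no filter (0.30, 0.0153), the sex covariate (0.36, 0.0242) and both stages in 1 fit (0.29, 0.0199), and ranged from 0.18 to 0.39 when 1 library was left out. Under the replicate block no call changed (*Pim1* 0.28 in Chd8 neo/neo, adjusted p = 0.0423, and 0.36 in Chd8 neo/-, adjusted p = 0.0108).

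Marker covariates, added later, lost the *Pim1* calls in Chd8 neo/- (erythroid, 0.16) and in Chd8 neo/neo (neuron, 0.074), and turned *Pim1* in Chd8 neo/- against Chd8 neo/neo (erythroid, -0.11), *Pim1* in Chd8 neo/neo against Chd8 +/- (neuron, -0.075), *Pim2* in Chd8 neo/- against Chd8 neo/neo (neuron, 0.0090), *Axin2* in Chd8 neo/neo (neuron, -0.19) and, with mesenchyme markers in cKO, *Pim2* (0.090), *Foxo1* (-0.021) and *Col3a1* (-0.075). They moved uncalled values by over 1.5 times without a change of sign for *Pim2* in Chd8 neo/neo (neuron, -0.24) and in Chd8 neo/- (erythroid, -0.27; neuron, -0.23) and for *Pim3* in Chd8 neo/neo (neuron, 0.22) and in Chd8 neo/- (erythroid, 0.10; neuron, 0.11). The cause was not tested.

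Values near 0, none of them called, changed sign. In Chd8 +/- *Pim2* gave 0.037 on the second run and -0.071 to 0.035 with 1 library left out, and *Pim3* -0.0019 with upper quartile scaling and -0.030 to 0.059. *Pim3* ranged from -0.0088 to 0.082 in Chd8 neo/- against Chd8 +/- and in cKO from -0.061 to 0.045, with -0.079 on the second run. For the difference between cKO and Chd8 neo/neo, *Pim1* gave -0.040 on the second run and -0.098 to 0.10 with 1 library left out, and *Pim2* -0.085 to 0.027. For that between cKO and Chd8 neo/-, *Pim1* ranged from -0.17 to 0.026 and *Pim2* from -0.039 to 0.074, and *Pim3* gave 0.046 on the first run. *Axin2* ranged from -0.0059 to 0.18.

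Of 29 calls of listed pathway genes, 12 held in all alternatives other than the marker covariates. These were 2 of 8 in Chd8 neo/neo, 4 of 5 in Chd8 neo/- and 6 of 16 in cKO. In cKO the calls were lost in 6 of 15 alternatives for *Foxo1* and 5 for *Cxcr4*. *Stat4*, *Numa1* and *Akt1* lost theirs in 4, *Il6st*, *Tyk2* and *Ppp2r1a* in 3, and *Tsc2* and *Snd1* in 2. The number of genes called moved with the setting, from 65 to 2605 in Chd8 neo/neo (1534 as reported), 133 to 2687 in Chd8 neo/- (2158) and 5 to 3558 in cKO (2110), the lowest under marker covariates; only the groups compared gave 430 in Chd8 neo/neo, and leaving out its replicate 3 gave 2605. The other comparisons ranged from 1 to 12 (4) in Chd8 +/-, 2 to 2100 (994) in Chd8 neo/neo against Chd8 +/-, 13 to 1669 (1021) in Chd8 neo/- against Chd8 +/-, 0 to 26 (3) in Chd8 neo/- against Chd8 neo/neo, and 623 to 1922 (1331) and 533 to 1873 (1329) for the differences of the cKO effect from those of Chd8 neo/neo and Chd8 neo/-. Groups of 3 libraries limit the detection of *Pim* changes of the size seen in Chd8 +/-.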
